A study of Gallus gallus and Dromaius novaehollandiae with 14 samples.

Results

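The epidermis of chicken scutate scales was compared with that of chicken reticulate scales, the 2 kinds of foot scale sampled, in 4 of the 14 RNA sequencing libraries of the series. The 4 libraries were chosen by their labels alone, as 2 replicates of scutate scale and 2 replicates of reticulate scale. In these libraries 599 of 6682 genes tested (8.96%) were called different, 321 (4.8%) higher and 278 (4.16%) lower in scutate scale. Among them, 31 called higher and 45 called lower reached 1 TPM in only 1 scale type, and so had to differ. The data identify genes by Ensembl chicken ID only, and the RefSeq gene table at hand carries no Ensembl IDs, so 0 IDs could be paired with a gene symbol. Genes are therefore described by ID, level and pattern, and no function is given for any of them. Reads shared between near-identical gene copies could not be looked for, so levels of genes with such copies are uncertain.

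Scutate scales are the large, asymmetric, overlapping plates on the front of the shank and the top of the toes. Reticulate scales are the small, rounded, radially symmetric scales of the sole. Each starts as a patterned region of embryonic skin in which epidermis and dermis signal to each other, and each hardens later as its outer cells fill with keratins and corneous proteins and die. Classical tissue recombination experiments in the chick showed that the dermis of a region decides which appendage the epidermis above it forms.

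Scutate scale epidermis was taken at Hamburger and Hamilton stage 37 (C103S and C116S, here replicates 1 and 2), and reticulate scale epidermis at stage 39 (C91R and C113R). Difference in stage and difference in scale type cannot be told apart. All 4 came from embryos incubated at 37.8 °C, from skin held in 10 mg/mL dispase at 4 °C for 13 h to free the epidermis, and the design text calls the replicates biological. The labels state no genotype, strain or sex. Chicken feather (stage 33 to 34) and chicken claw (stage 36), with 2 libraries each, and emu scutate scale (2 libraries) and emu reticulate scale (1 library), at the same stages as in chicken and from eggs kept at 35.5 °C, are used below to place the scale genes. These and the emu feather and claw libraries also entered the fit, where the groups of 2 libraries helped to estimate the spread between replicates. Emu reticulate scale and emu claw are single libraries and have no replicate spread to add.

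Levels are TPM, a transcript level corrected for gene length and library size, and differences are in log2(TPM + 1), scutate minus reticulate. The whole reads behind the TPM could be worked back for 98.4% of the tested genes in chicken, and they summed to 12630274 and 13501711 in the scutate libraries, against 13221226 and 11609435 in the reticulate libraries. Replicates differed by 2-fold or more in 236 genes in scutate scale and in 163 genes in reticulate scale. The 4 pairs of 1 scutate and 1 reticulate library differed by that much in 451 to 812 genes. Scutate scale replicate 2 lay nearer to the reticulate libraries (451 and 503 genes) than scutate scale replicate 1 did (625 and 812 genes). Markers of the epidermis and of other cell types could not be read without symbols, so the tissue label was not checked. In bulk tissue, fewer cells of a kind and less RNA per cell cannot be told apart.

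Genes were tested where TPM was at least 1 in at least 2 of the 4 libraries. Of the 6682 genes, 78 passed only through scutate scale and 111 only through reticulate scale, and these had to differ. At a limma adjusted p under 0.05, 8.96% of the tested genes were called, 4.8% higher and 4.16% lower in scutate scale. The calls include genes that had to differ, 31 of the 78 among those called higher and 45 of the 111 among those called lower. The values of the 2 scale types did not overlap in 52.7% of all tested genes (31.3% higher and 21.4% lower in scutate scale), and in 599 of the 599 called. The smallest two-sided p that an exact permutation of 2 against 2 libraries allows is 0.333, so every call rests on the spread shared across genes and groups in limma. The split by direction moved with the scaling. It was 53.6% higher as deposited, and 42.4% higher (236 higher, 320 lower) after median-ratio rescaling.

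As deposited, the genes called lower in scutate scale differed by more, and at lower levels, than the genes called higher there. The median log2 difference was 0.87 among the genes called higher and -1.30 among those called lower, against 0.05 over all tested genes. The smallest called difference was 0.26 among the genes called higher and -0.41 among those called lower. These sizes were not recomputed after rescaling. The sets include 45 genes called lower and 31 called higher that passed the filter only through the scale type in which they were high. These had to differ, and sizes and levels were not recomputed without them. A lower level in scutate scale also follows in part from being called lower there. The genes called higher had a median of 53.8 TPM in scutate scale and 24.8 TPM in reticulate scale. Those called lower had a median of 5.26 TPM in scutate scale and 20.7 TPM in reticulate scale. A log2 difference of at least 1 was reached by 331 of the called genes (4.95% of all tested), 142 higher and 189 lower, and one of at least 2 by 50 and 57. Of the genes called lower, 127 (45.7%) had a mean under 10 TPM over the 4 libraries, as had 81 (25.2%) of those called higher and 22.3% of all tested genes. At a mean of at least 100 TPM the order was the reverse, with 24.9% of the genes called higher, 11.5% of those called lower and 13.0% of all tested. The median spread between replicates, as an SD in log2, was 0.266 for genes under 5 TPM and 0.125 for genes of at least 100 TPM.

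**Figure D1:**
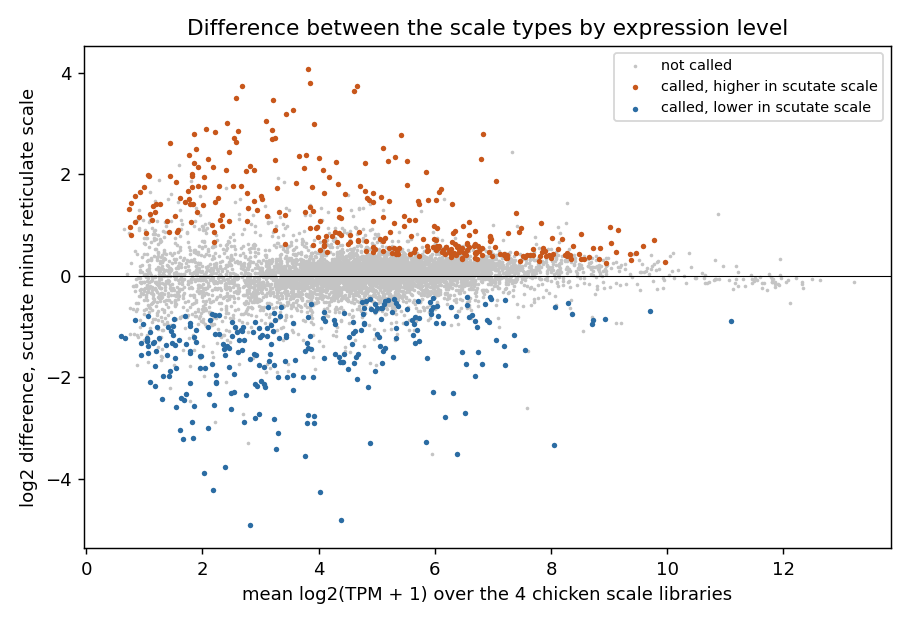
Each point is 1 of the 6682 tested genes, with its mean log2(TPM + 1) over the 4 chicken scale libraries on the x axis and its log2 difference, scutate minus reticulate scale, on the y axis. The 321 genes called higher in scutate scale (orange) reach 4.08 and the 278 called lower (blue) reach -4.92, with the genes not called in grey.

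As a part of all listed transcripts, the called genes were small in each library. Genes called higher in scutate scale held 6.63% and 6.42% of the TPM in the scutate libraries and 4.14% and 4.18% in the reticulate libraries. Genes called lower held 1.41% and 1.66% of it in the scutate libraries, against 3.74% and 3.27% in the reticulate libraries. The scale types do not overlap in these shares, which follow from how the genes were chosen. Feather held 7.06% and 6.76% for the genes called higher and 1.5% and 1.57% for those called lower, and claw 5.57% and 5.85%, and 2.74% and 2.63%. Feather thus lay beyond or beside scutate scale, and claw between the scales, in each share.

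Of the 30 genes described next, 9 passed the filter only through the scale type in which they were high and so had to differ: ENSGALG00000019280, ENSGALG00000010803 and ENSGALG00000010408 through scutate scale, and ENSGALG00000007466, ENSGALG00000015205, ENSGALG00000016899, ENSGALG00000012117, ENSGALG00000003957 and ENSGALG00000004857 through reticulate scale. Their differences are given as a description, without a p.

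Among the 15 largest called differences higher in scutate scale, 6 genes had both scutate libraries above the other 6 chicken libraries, feather and claw included. ENSGALG00000019280 had 27.4 and 18.6 TPM in scutate scale, against 0.954 and 0.586 TPM in reticulate scale, with 638 and 453 reads behind the scutate values and 23 and 13 behind the reticulate ones. It had 2.51 and 1.85 TPM in feather and 0.202 and 1.13 TPM in claw, so that its level in scutate scale was the highest of the chicken appendages sampled. The scale types differed by 3.74 log2 units (SE 0.35). ENSGALG00000010408 had 10.3 and 10.5 TPM in scutate scale, against 0.534 and 0.548 TPM in reticulate scale, a difference of 2.89 (SE 0.21). Its replicates were nearly equal within each scale type, and its feather level of 4.12 and 3.37 TPM lay between them. ENSGALG00000001319 had 22.0 and 26.0 TPM in scutate scale and 1.62 and 3.45 TPM in reticulate scale, with 7.38 and 10.6 TPM in feather. ENSGALG00000017229 had 52.1 and 18.9 TPM in scutate scale, against 2.25 and 2.95 TPM in reticulate scale. ENSGALG00000015558 had 33.7 and 16.6 TPM in scutate scale, against 0.821 and 3.88 TPM in reticulate scale. In these 2 genes the scutate replicates differed from each other by more than the reticulate replicates did in TPM. In log2(TPM + 1), the reticulate replicates of ENSGALG00000015558 were the further apart. That the scale types do not overlap follows from how the genes were chosen. The sixth, ENSGALG00000012097, had 41.6 and 4.49 TPM in scutate scale, against 0.589 and 1.25 TPM in reticulate scale. Its call rested on more than 1 library: the log2 difference of 3.02 (limma adjusted p 0.036) became 1.54 (adjusted p 0.061) without scutate scale replicate 1, and the adjusted p was 0.19 without reticulate scale replicate 1 and 0.096 without reticulate scale replicate 2.

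A further 5 of the 15 were nearer to their scutate level in feather and nearer to their reticulate level in claw. ENSGALG00000005892 had the largest difference in this direction at the pseudocount of 1, 4.08 (SE 0.38, limma adjusted p 0.00061). It had 76.5 and 42.9 TPM in scutate scale, against 2.02 and 2.91 TPM in reticulate scale. Feather held 66.7 and 65.1 TPM of it, and claw 0.226 and 1.92 TPM. At a pseudocount of 0.1 its log2 difference was 4.5, below the 4.73 of ENSGALG00000019280. ENSGALG00000010402 had 78.5 and 92.0 TPM in scutate scale, against 6.47 and 5.34 TPM in reticulate scale, a difference of 3.64 (SE 0.24, limma adjusted p 0.00024). It was at 96.8 and 66.2 TPM in feather and at 0.578 and 1.23 TPM in claw, lower than in reticulate scale. In ENSGALG00000005892 and ENSGALG00000010402 the feather and scutate libraries overlapped. ENSGALG00000010803 had 37.0 and 9.68 TPM in scutate scale and 0.855 and 0.719 TPM in reticulate scale, with 48.0 and 53.4 TPM in feather and 2.39 and 0.530 TPM in claw. ENSGALG00000006851 had 44.2 and 20.1 TPM in scutate scale, against 2.59 and 1.19 TPM in reticulate scale, with 23.7 and 21.2 TPM in feather and 1.58 and 5.65 TPM in claw. In these last 2 genes scutate scale replicate 1 was well above replicate 2 while both reticulate libraries stayed low. ENSGALG00000006258 had 20.6 and 11.5 TPM in scutate scale, against 0.530 and 2.35 TPM in reticulate scale, with 26.4 and 18.0 TPM in feather and 0.627 and 6.44 TPM in claw. Its limma adjusted p of 0.028 was 0.14 without scutate scale replicate 1, 0.053 without scutate scale replicate 2 and 0.19 without reticulate scale replicate 1.

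In 3 of the 15, both reticulate libraries lay below the other 6 chicken libraries. ENSGALG00000008444 had 83.8 and 100.6 TPM in scutate scale, against 5.71 and 6.08 TPM in reticulate scale, a difference of 3.75 (SE 0.30, limma adjusted p 0.00042). Feather matched scutate scale at 83.5 and 85.4 TPM, while claw reached 1588 and 3595 TPM, so this gene was lowest in reticulate scale and far higher in claw than in either scale. ENSGALG00000016912 had 29.7 and 42.4 TPM in scutate scale, against 3.77 and 2.07 TPM in reticulate scale. ENSGALG00000014069 had 57.5 and 30.6 TPM in scutate scale, against 4.77 and 3.99 TPM in reticulate scale. The remaining gene of the 15, ENSGALG00000019647, was shared with claw but not with feather. It had 78.2 and 35.5 TPM in scutate scale, against 1.77 and 4.48 TPM in reticulate scale, with 187 and 136 TPM in claw and 1.21 and 1.16 TPM in feather.

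**Figure D2:**
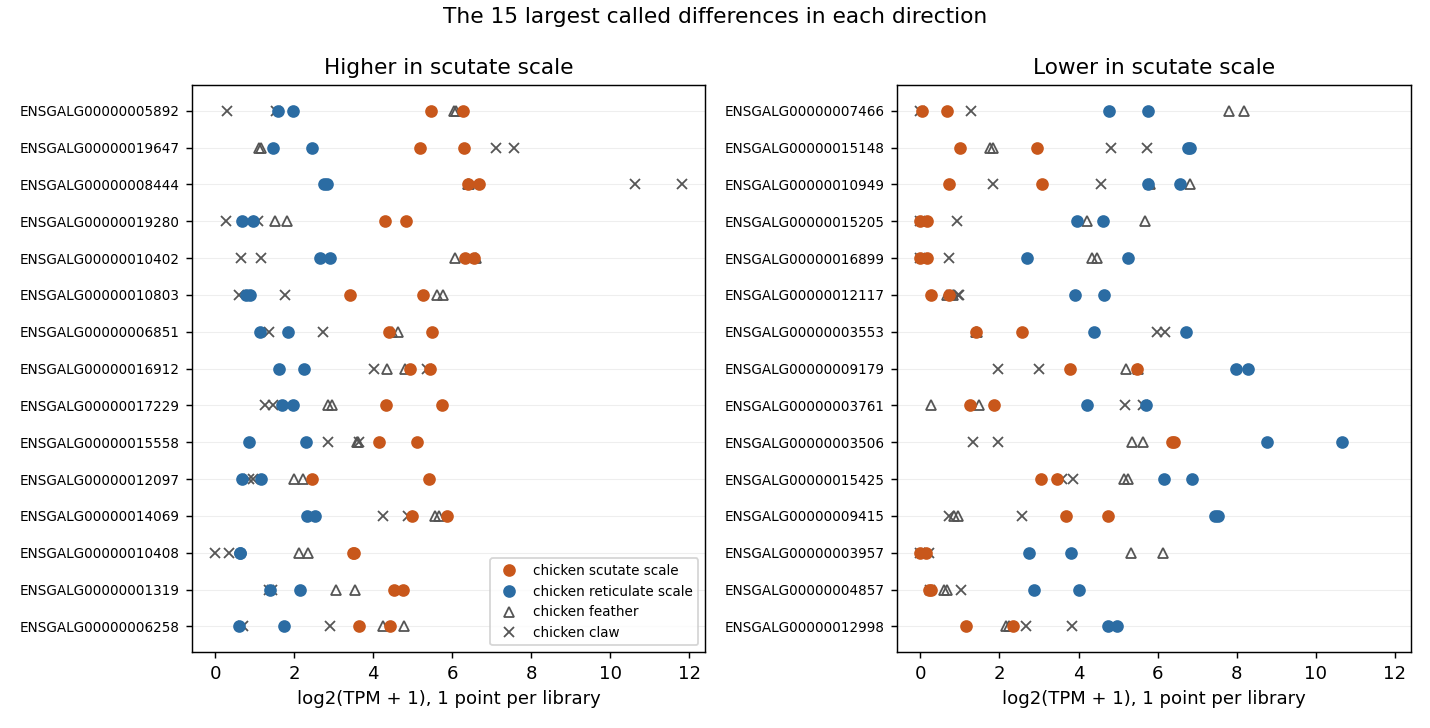
The log2(TPM + 1) of the 15 largest called differences in each direction is shown on the x axis, 1 row per gene and 1 point per library, with scutate scale in orange, reticulate scale in blue, feather as open triangles and claw as crosses. Among the genes lower in scutate scale, 8 have both reticulate points to the right of all other points, and 6 have every scutate and claw point to the left of every feather and reticulate point.

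Among the 15 largest differences lower in scutate scale, 8 had both reticulate libraries above the other 6 chicken libraries. ENSGALG00000015148 had 0.993 and 6.72 TPM in scutate scale, against 107.9 and 112 TPM in reticulate scale, a difference of -4.82 (SE 0.51, limma adjusted p 0.00085). Claw was intermediate at 27.2 and 52.4 TPM and feather low at 2.38 and 2.55 TPM. ENSGALG00000012117 had 0.211 and 0.663 TPM in scutate scale (7 and 23 reads), against 24.2 and 13.95 TPM in reticulate scale (830 and 440 reads). It lay between 0.589 and 0.966 TPM in the 4 feather and claw libraries, so that in chicken it passed 1 TPM in reticulate scale alone. The difference was -3.77 (SE 0.36). ENSGALG00000004857 was also highest in reticulate scale, with 0.156 and 0.199 TPM in scutate scale (3 and 4 reads) and 6.33 and 15.03 TPM in reticulate scale, while its feather and claw levels reached at most 1.03 TPM.

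The other genes highest in reticulate scale were also present in scutate scale. ENSGALG00000003506 was the most abundant of the 15, with 84.1 and 81.6 TPM in scutate scale, against 436 and 1632 TPM in reticulate scale. The reticulate replicates differed by far more than the scutate replicates did (log2 difference between the scale types -3.33, SE 0.49, limma adjusted p 0.0052). Claw held 2.92 and 1.497 TPM of it and feather 48.3 and 39.6 TPM. ENSGALG00000009415 had 11.7 and 25.7 TPM in scutate scale, against 175 and 182 TPM in reticulate scale, with under 5 TPM in every feather and claw library. Its highest levels in chicken were thus in the 2 scales. ENSGALG00000009179 had 12.7 and 43.5 TPM in scutate scale, against 311 and 254 TPM in reticulate scale, while its limma adjusted p of 0.0084 was 0.068 without reticulate scale replicate 1. ENSGALG00000015425 had 7.22 and 9.90 TPM in scutate scale, against 117 and 71.2 TPM in reticulate scale, and ENSGALG00000012998 had 1.23 and 4.05 TPM in scutate scale, against 30.2 and 25.7 TPM in reticulate scale.

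In 6 of the 15, every scutate and claw library lay below every feather and reticulate library, a pattern that 255 of the 6682 tested genes and 65 of the 278 called lower had. ENSGALG00000007466 had the largest difference of all at the pseudocount of 1, -4.92 (SE 0.45). It had 0.587 and 0.0280 TPM in scutate scale, against 53.6 and 26.5 TPM in reticulate scale. Claw was listed at 0 and at 1.42 TPM, while feather held 225 and 289 TPM, so that the gene was present in 2 of the 4 appendages and nearly absent from the others. ENSGALG00000015205 had 4 and 0 reads in scutate scale (0.114 and 0 TPM), against 857 and 490 reads in reticulate scale (23.6 and 14.7 TPM). ENSGALG00000016899 had 4 and 0 reads in scutate scale, against 1204 and 164 reads in reticulate scale (36.8 and 5.45 TPM). ENSGALG00000003957 had 2 and 0 reads in scutate scale, against 284 and 114 reads in reticulate scale (13.1 and 5.70 TPM). For these 3 genes the log2 differences of -4.22, -3.88 and -3.21 take their size from the pseudocount of 1. In claw these 3 were near 0 as well, at no more than 0.903 TPM. The sizes for ENSGALG00000007466, ENSGALG00000012117 and ENSGALG00000004857 depend on the pseudocount too, and at 0.1 they were -6.99, -5.25 and -5.16. At that setting ENSGALG00000015205 had -7.0, so the order of the largest differences depends on it. ENSGALG00000010949 had 0.660 and 7.36 TPM in scutate scale, against 94.3 and 53.1 TPM in reticulate scale. Its limma adjusted p of 0.021 was 0.12 without scutate scale replicate 1, 0.14 without reticulate scale replicate 1 and 0.060 without reticulate scale replicate 2. ENSGALG00000015425, given above, is the sixth. Reticulate scale replicate 1 was above replicate 2 in 6 of these 6 genes, as in 4209 of all tested genes. Whether another cell type common to feather and reticulate scale skin moved with them was not tested, since its markers could not be named.

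The last 2 of the 15 were shared by reticulate scale and claw. ENSGALG00000003761 had 1.37 and 2.62 TPM in scutate scale, against 51.6 and 17.6 TPM in reticulate scale, with 35.3 and 48.6 TPM in claw. ENSGALG00000003553 had 1.66 and 4.93 TPM in scutate scale, against 104.5 and 19.9 TPM in reticulate scale, with 72.4 and 62.1 TPM in claw. In feather these genes had at most 1.79 TPM. The reticulate replicates of ENSGALG00000003553 lay far apart, and its limma adjusted p of 0.0091 was 0.060 without scutate scale replicate 1.

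Differences in log2 favour genes at low levels, so the called genes with the largest differences in TPM were also listed, chosen after their values were seen. ENSGALG00000003506, given above, was among them. ENSGALG00000003770 had 1436 and 1786 TPM in scutate scale, against 3006 and 2930 TPM in reticulate scale (log2 difference -0.89, SE 0.18, limma adjusted p 0.016). ENSGALG00000007280 had 562 and 759.97 TPM in scutate scale, against 1178 and 949 TPM in reticulate scale. These 2 were changes of under 2-fold in abundant transcripts, and they lost their calls in some fits without a library, with adjusted p of 0.096 and 0.094 without scutate scale replicate 1, 0.095 and 0.14 without reticulate scale replicate 1, and 0.061 for ENSGALG00000003770 without reticulate scale replicate 2. In the other direction ENSGALG00000016444 had 766 and 685 TPM in scutate scale, against 362 and 379 TPM in reticulate scale (0.97, SE 0.10, limma adjusted p 0.00078). ENSGALG00000013257 had 854 and 709 TPM in scutate scale, against 410 and 418 TPM in reticulate scale (0.91, SE 0.10, limma adjusted p 0.0011). These 2 genes were called in all 4 fits that left out a scale library. In emu they were ordered the same way, at 714 and 644 TPM in emu scutate scale, against 377 TPM in emu reticulate scale, for ENSGALG00000016444, and at 574 and 566 TPM against 401 TPM for ENSGALG00000013257. ENSGALG00000011324 had 1056 and 1191 TPM in scutate scale, against 624 and 754 TPM in reticulate scale, with an adjusted p of 0.013 that was 0.066 without scutate scale replicate 2 and 0.11 without reticulate scale replicate 1. It was listed at 0 in all 3 emu scale libraries.

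At the other end were genes near 0 in one scale type, which the filter alone obliges to differ and which are given as a description. Of the genes called lower, 45 had under 1 TPM in both scutate libraries, and their median was 3.53 TPM in reticulate scale. In feather 18 of the 45 had at least 1 TPM in both libraries, and in claw 15. Of the genes called higher, 31 had under 1 TPM in both reticulate libraries, and their median was 2.94 TPM in scutate scale. In feather 23 of the 31 had at least 1 TPM in both libraries, and in claw 9. Part of either set was thus also present in another chicken appendage.

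The place of feather and claw was then described for all called genes. Of the 321 genes called higher in scutate scale, 69 (21.5%) had both scutate libraries above the other 6 chicken libraries and 138 (43.0%) had both reticulate libraries below them. Over all tested genes these shares were 6.02% and 8.1%. Of the 278 called lower, 165 (59.4%) had both reticulate libraries above the other 6 and 60 (21.6%) had both scutate libraries below them, against 10.0% and 3.22% of all tested genes. A call between the scales raises these shares by itself. More called genes set reticulate scale apart than set scutate scale apart, as did more of all tested genes. An imbalance in this direction is therefore not by itself a result about the called genes. Its size was not tested against that of all tested genes, which include the called ones. Feather was nearer to scutate than to reticulate scale in 278 (86.6%) of the genes called higher, in 198 (71.2%) of those called lower and in 67.5% of all tested genes. Feather was sampled at the earliest stage and reticulate scale at the latest, so stage and appendage cannot be told apart here. For claw the share turned with the scaling. As deposited, claw was nearer to scutate scale in 30.8% of genes called higher, 64.0% of those called lower and 45.9% of all tested. After median-ratio rescaling these shares were 54.8%, 54.0% and 52.1%, so those of the called genes were near that of all tested genes.

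The emu scutate scale libraries helped to estimate the spread behind the calls but not the chicken levels. Emu scutate and reticulate scales gave the same direction for most but not all of the called genes. Of the 599 genes, 532 reached a mean of 1 TPM in at least 1 emu scale type, and 363 (68.2%) of these differed in the same direction in emu, against 57.7% of the 5705 tested genes that were not called. A difference of at least 2-fold in emu was shown by 7.22% of the measurable tested genes. It was in the same direction for 77 called genes and in the opposite direction for 20, against 229 and 124 genes not called. Of the 272 measurable called genes at least 1 log2 unit apart in chicken, 63.6% had the same direction in emu. No test was made, because emu reticulate scale is a single library. The emu scales were taken at the same stages as the chicken scales. Stage and scale type therefore cannot be told apart in emu either, and a shared direction does not separate them.

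Called genes at least 2 log2 units apart in chicken and measurable in emu numbered 85. Of these, 9 were at least 2 log2 units apart in the same direction in emu and 0 in the opposite direction. The share of all tested genes that far apart in emu was not counted. The 9 were singled out after their values were seen, and 7 of them were lower in scutate scale. ENSGALG00000009415 was at 19.0 and 25.2 TPM in emu scutate scale and at 291 TPM in emu reticulate scale. ENSGALG00000015205 was at 0.537 and 0.0818 TPM in emu scutate scale and at 17.5 TPM in emu reticulate scale, again nearly absent from scutate scale. ENSGALG00000010949 was at 6.45 and 9.22 TPM in emu scutate scale and at 42.4 TPM in emu reticulate scale. These 3 repeat the chicken order and belong to the largest differences above. ENSGALG00000004627 had 3.74 and 5.55 TPM in chicken scutate scale, against 51.5 and 32.0 TPM in chicken reticulate scale, and 2.64 and 2.90 TPM in emu scutate scale, against 14.99 TPM in emu reticulate scale. ENSGALG00000004730, ENSGALG00000006905 and ENSGALG00000022323 had log2 differences of -2.73, -2.58 and -2.74 in chicken and of -2.54, -2.56 and -2.62 in emu. With 0.109 and 0.277 TPM in chicken scutate scale, ENSGALG00000006905 passed the filter only through reticulate scale, and so had to differ in chicken. The 2 genes higher in scutate scale were ENSGALG00000017119 and ENSGALG00000006258. ENSGALG00000017119 had 300.1 and 299 TPM in chicken scutate scale, against 34.4 and 51.7 TPM in chicken reticulate scale, and 598 and 574 TPM in emu scutate scale, against 137 TPM in emu reticulate scale. It was the most abundant of the 9 in scutate scale in each bird, and its chicken difference was 2.80 (limma adjusted p 0.0011). ENSGALG00000006258 had 8.61 and 10.5 TPM in emu scutate scale, against 0.751 TPM in emu reticulate scale.

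**Figure D3:**
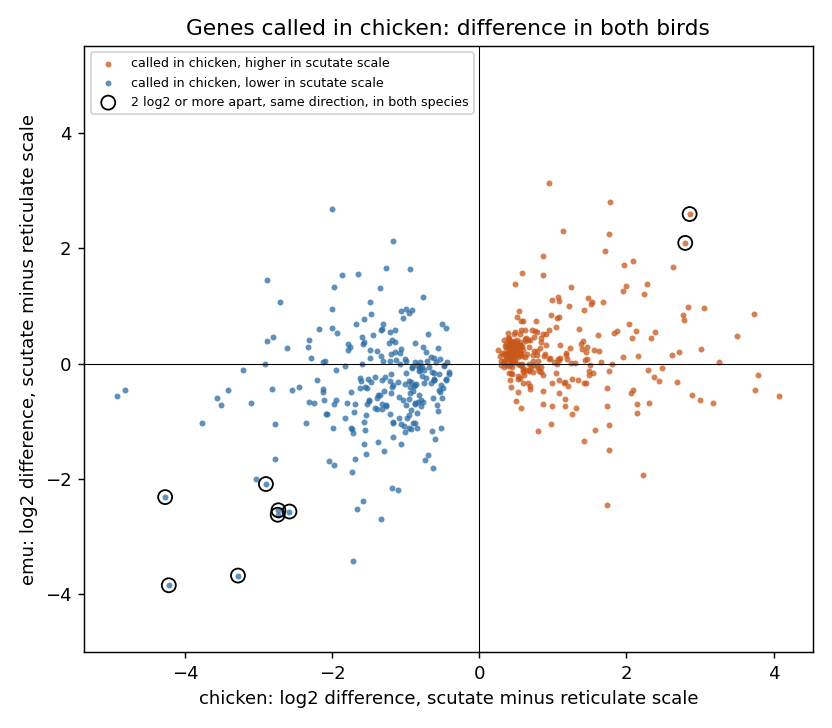
Each point is 1 gene called in chicken and measurable in emu, with the chicken log2 difference, scutate minus reticulate scale, on the x axis and the emu one on the y axis. Of the 532 points 363 lie in the quadrants of equal sign, and the 9 circled genes differ by at least 2 log2 units in the same direction in each bird.

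The number of calls depended on which libraries estimated the spread. With only the 8 chicken libraries in the fit 264 genes were called, with only the 4 scale libraries 226, and with all libraries except claw, whose chicken replicates differed most, 1036. Without reticulate scale replicate 1 the count was 192, and without scutate scale replicate 1 it was 304. Of the 599 genes, 168 were called in the same direction both with the chicken libraries only and with the 4 scale libraries only, and 148 in all 4 fits that left out a scale library. A fit by voom to the recovered reads, chosen after the data were seen, called 578 genes with all 14 libraries and 92 with only the 4 scale libraries. Of the 30 genes with the largest differences, 27 were called in the chicken fit, 27 in the fit of the 4 libraries and 25 in all 4 fits that left out a scale library. In the voom fit of all 14 libraries, 23 of the 27 that could be fitted were called, and in that of the 4 scale libraries 13 of 28. These counts include the 9 genes that had to differ, and the counts of all called genes in each fit include such genes too. The 30 were chosen as the largest called differences in these same libraries, which each fit uses again. Keeping a call is therefore no separate support.

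**Figure D4:**
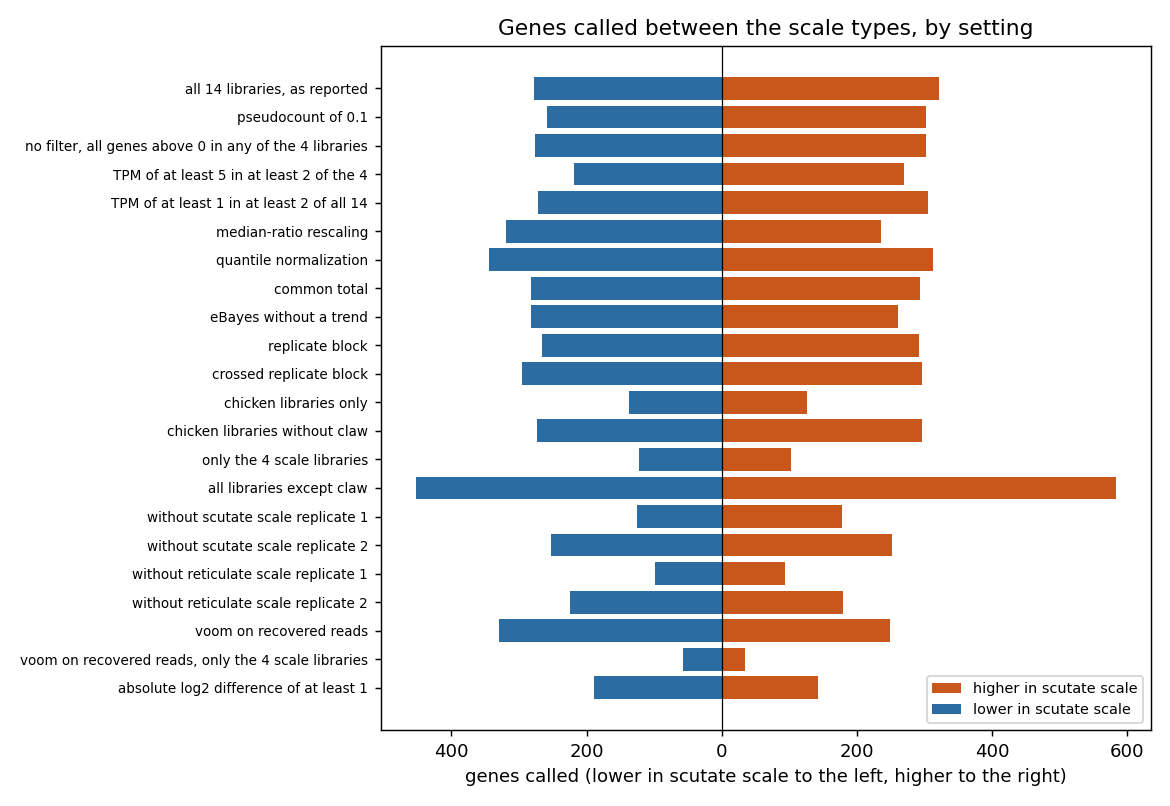
Bars give the number of genes called between the chicken scale types under each setting, on the x axis, with genes lower in scutate scale to the left of 0 (blue) and genes higher to the right (orange). The count is 599 as reported and ranges from 92, for voom on the recovered reads of only the 4 scale libraries, to 1036 without the claw libraries.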

How the data were processed

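Per the submitters' processing notes, CASAVA, TopHat2 2.0.6 and HTSeq 0.5.3p9 were used; genome build, annotation and filters are not given in the sources used here. The authors deposited 1 table of 8751 genes by 14 libraries. Its values are the square root of TPM, which no header states. It was inferred from the values: once squared, and divided by 1 factor per library, 96.5% of the chicken genes above 0 stood in whole-number ratios (within 0.001 read), as reads divided by gene length do. These reads give the depth; intervals were not computed. The depth sums leave out genes not solved. The names of the emu columns end in "scaled", and the TPM of each emu library summed to 550000. In the chicken libraries they summed to 500783 to 575133. How the emu values were scaled is not given in the sources used here, so levels are not compared between the birds.

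Values were squared and analysed as log2(TPM + 1) with limma 3.58.1 in R 4.3.3 (group means of all 14 libraries, 6 residual degrees of freedom, eBayes with trend, Benjamini-Hochberg over 6682 genes). Figures and counts used Python 3.11.15. In simulated data with these genes, 75.4% of changes of 1 log2 unit and 96.3% of changes of 2 were recovered. Of the calls in the simulated data, 5.6% were false. These rates describe the simulated data and are not an error rate of the genes called here. In the libraries themselves, replicates differed by 2-fold or more in 546 genes in chicken claw and in 66 genes in chicken feather. Whether the rates hold under such unequal spread was not tested.

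Genes are named as the 15 largest called, non-overlapping differences in each direction; others named are said to be chosen after their values were seen. Comparison, lists and tests were chosen with earlier results of these data known. Lists of pathway and cell type genes, written by symbol, could not be applied, because 0 IDs matched. Same-numbered scale libraries did not deviate together (r -0.251 across genes). By the sign of r, scutate and reticulate scale libraries of opposite number tended to deviate together, and the cause was not tested. Replicate numbers were therefore not used for pairing.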

Additional observations from a re-analysis of the deposited data

Results flagged for a closer look

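For 9 of the 30 genes with the largest chicken differences, the emu scale libraries were ordered the opposite way, with both emu scutate scale libraries on the other side of the single emu reticulate scale library. The order in emu was not tested, and the share of all tested genes ordered this way was not counted. Whether 9 of 30 is more than among other genes is therefore not known. By the mean emu difference, 6 of the 12 measurable genes among the 15 largest higher had the chicken direction. So did 11 of 11 among the 15 largest lower, against 57.7% of the measurable tested genes not called. The emu log2 differences, scutate minus reticulate scale, beside the chicken ones, were -0.56 against 4.08 for ENSGALG00000005892, -0.19 against 3.79 for ENSGALG00000019647, -0.47 against 3.75 for ENSGALG00000008444 and -0.65 against 3.64 for ENSGALG00000010402. They were -0.68 against 3.18 for ENSGALG00000017229, -0.64 against 3 for ENSGALG00000014069, -0.55 against 2.89 for ENSGALG00000010408 and -0.04 against 2.87 for ENSGALG00000001319. ENSGALG00000004857, which was lower in chicken scutate scale by -3.20, had an emu difference of 0.32. The opposite emu differences were small, at most 0.68 in size. ENSGALG00000001319 and ENSGALG00000010402 were listed at 0 in both emu scutate scale libraries, and ENSGALG00000004857 was under 1 TPM in all 3 emu scale libraries. ENSGALG00000017229 and ENSGALG00000014069 were abundant in emu, with 103.5 and 110.4 TPM and with 92.2 and 137 TPM in emu scutate scale, against 172 and 176 TPM in emu reticulate scale.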

How the results depend on the processing

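The 599 calls became 264 with the chicken libraries only, 226 with only the 4 scale libraries, 1036 with all libraries except claw, 92 with voom on the recovered reads of the 4 scale libraries (1338 at an unadjusted p under 0.05) and 331 with a log2 difference of at least 1. Residual degrees of freedom were 6 in the main fit, 4 with the chicken libraries only, 2 with only the 4 scale libraries and 5 without claw. The chicken libraries without claw, at 3 degrees of freedom, gave 569 calls. The cause of the changes in count was not tested. Leaving out 1 scale library gave 192 to 505 calls, with the lone sample assumed to vary like the other groups. The other settings gave 488 to 657, among them voom on the reads of all 14 libraries with 578 (249 higher and 329 lower, 43.1% higher), of which 468 were shared. The share of same-direction genes in emu was 68.2% as deposited, 69.0% after median-ratio rescaling and 67.7% to 68.0% without either emu scutate scale replicate. The replicate block gave 558 calls and a block with crossed numbers 592, chosen after seeing the data, as were both voom fits and the fit without claw. The block ended no call of the 30 named genes. The 30 were chosen for scale types that do not overlap, so leaving out a library or changing the pseudocount could not reverse their direction. None changed direction in any setting that could fit it. Among fits of TPM values with both replicates of each scale type, the most calls lost were 3 of 30. That was with the chicken libraries only and with only the 4 scale libraries. The 30 were chosen as called in the same libraries, so keeping a call is no separate support. The scale libraries held 11609435 to 13501711 recovered reads. Genes under 5 TPM had a median of 65.5 reads per library, and 14.4% of them were called, against 8.96% of all tested genes. Genes that the filter alone obliged to differ are among them and were not taken out.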
